A study of Mus musculus with 4 samples.

Results

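Replication-dependent histone genes lie in clusters, and the peaks of the nuclear protein HTATSF1 across the 2 largest clusters of the mouse genome are described here. Members were chosen by position alone, in intervals set with earlier results of these data known. They are all peaks of both deposited lists that lie wholly inside 21.7 to 23.9 Mb of chromosome 13 (the Hist1 interval) or 96.0 to 96.1 Mb of chromosome 3 (the Hist2 interval), in the mm9 build. There were 143 such peaks among the 33607 of both lists. The Hist1 interval held 59 of the 19489 peaks of replicate 1 and 68 of the 14118 of replicate 2, and the Hist2 interval held 8 in each list.

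The lists came from chromatin immunoprecipitation followed by sequencing (ChIP-seq) in untreated mouse embryonic stem cells, which were derived from tatsf1 flox/flox CreERT2 mice. The cells thus carried a floxed, deletable Htatsf1 allele and an inducible Cre recombinase in every library, and they were grown on fibroblast feeders, whose chromatin may be present too. Each of 2 immunoprecipitated libraries (anti-HTATSF1, raised in rabbit against a mouse peptide) had its own peak list, and 2 input libraries without antibody, not analysed here, completed the series. Reads were 50 bases long, the depth behind each list is unknown, and nothing says that the 2 libraries came from separate cultures. The spread between the lists may therefore be technical, and with 1 condition there is no comparison between groups and no test.

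HTATSF1 binds RNA in the nucleus and is known as a partner of the splicing machinery. Replication-dependent histone genes supply the histones that package newly copied DNA. Their transcripts are unusual in carrying no introns and ending in a stem-loop in place of a poly(A) tail, and embryonic stem cells, which divide fast, transcribe them heavily. The Hist1 cluster is split in mouse by a large family of vomeronasal receptor genes (Vmn1r), which serve pheromone detection in sensory neurons and are not known for a role in stem cells.

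The order of the genes in RefSeq (GRCm38.p6), a later build than that of the peaks, was used for names and neighbours only. Along chromosome 13 it lists a first block of 19 histone genes from H2bc13 to H4bc24, then 31 tRNA genes with Zfp184, Pom121l2 and Prss16, then 5 more histone genes from H2ac12 to H2bc11. After 1 tRNA gene come 75 Vmn1r genes and pseudogenes. Next lie 45 tRNA genes with Zfp322a, Abt1, Btn1a1 and Btn2a2, and last a block of 32 histone genes and pseudogenes that also contains Hfe, Trim38 and 4 Slc17a genes. Of these 56 histone entries 54 are protein-coding: 6 for the linker histone H1, 13 for H2A, 15 for H2B, 9 for H3 and 11 for H4. The cluster on chromosome 3 has 10, from H2ac21 to H2bc18 (4 for H2A, 2 for H2B, 3 for H3 and 1 for H4). The histone blocks thus have many tRNA genes, which are transcribed by another polymerase, as neighbours in this order. Where these lie relative to the ends and the middle of the interval was not determined. No mm9 annotation was used, so a peak cannot be assigned to a histone gene, a tRNA gene or another neighbour, and the gene content of the intervals was not checked against the peaks.

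RefSeq promoters (GRCm38.p6, 250 bases before to 50 after the start) were found for 59 of the 64 protein-coding histone genes. The octamer ATTTGCAT, known as an element of H2B promoters, occurred on either strand in 6 of 15 H2B promoters, 6 of 17 H2A promoters and no H1, H3 or H4 promoter. It occurred in 1.75% of all 27025 promoters in the table. The stretches around it in the 6 H2B promoters are shown so that the common and the differing bases can be seen; capitals mark the octamer, and all lie before the annotated start. Positions are left out because they belong to another build than the peaks.
H2bc14 (chromosome 13, plus strand): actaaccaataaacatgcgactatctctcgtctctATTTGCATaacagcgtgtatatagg
H2bc12 (chromosome 13, plus strand): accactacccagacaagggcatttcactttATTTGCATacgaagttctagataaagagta
H2bc1 (chromosome 13, minus strand): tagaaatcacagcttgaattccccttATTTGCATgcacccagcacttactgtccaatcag
H2bc3 (chromosome 13, plus strand): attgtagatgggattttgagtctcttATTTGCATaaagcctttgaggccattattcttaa
H2bc8 (chromosome 13, plus strand): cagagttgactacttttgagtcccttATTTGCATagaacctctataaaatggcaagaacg
H2bc18 (chromosome 3, plus strand): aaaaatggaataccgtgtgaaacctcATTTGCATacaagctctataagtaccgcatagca
The motif TATAAA was present on either strand in 57.6% of the histone promoters and 14.2% of all promoters. CCAAT was present in 86.4% and 37.9%, in every H1, H2A, H2B and H3 promoter and in 3 of 11 H4 promoters. Matches of different motifs may overlap, and a match is a description of the letters, not of binding.

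Some histone promoters are copies of each other, which bears on where a read of 50 bases can be placed. In 12 of the 59 histone promoters (20.3%), at least 1 stretch of 50 bases occurred, on either strand, at another place in the promoter table, against 8.68% of all promoters. The 12 can be arranged in pairs. Copies outside a pair may exist too, since 218 stretches of H2ac23 but 184 of H2ac24 occurred at another place. H2bc23 and H4bc24 (an H2B gene by its older symbol) were identical over all 300 bases, H4c17 and H4c18 over a run of 285, H3c14 and H3c15 over 231, H2ac18 and H2ac19 over 219, H2ac23 and H2ac24 over 200, and H4c11 and H4c12 over 72. The 100 bases just before the start of H2bc23 and H4bc24 on chromosome 13, and 100 bases from before the start that H3c14 and H3c15 share on chromosome 3, are shown as examples. Capitals mark CCAAT, which is in the first only.
H2bc23 and H4bc24 (minus and plus strand): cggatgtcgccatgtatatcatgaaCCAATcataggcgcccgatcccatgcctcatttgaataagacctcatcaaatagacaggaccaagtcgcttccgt
H3c14 and H3c15 (plus and minus strand): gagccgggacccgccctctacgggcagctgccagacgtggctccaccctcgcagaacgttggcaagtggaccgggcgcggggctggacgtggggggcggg
A read from such a stretch fits both copies equally. How the authors treated reads with more than 1 place is not given in the sources used here, so the lack of a peak at a duplicated promoter cannot be read as a lack of HTATSF1.

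HTATSF1 peaks were several times denser in the Hist1 interval than on the rest of chromosome 13, in both lists. There were 2.68 peaks per 100 kb in replicate 1 and 3.09 in replicate 2. The rest of the chromosome, between its first and last peak, had 0.528 and 0.387 per 100 kb over 606 and 444 peaks. The density was thus 5.08-fold higher in replicate 1 and 7.99-fold higher in replicate 2. Against only those 100 kb windows of the rest that held a peak of either list, it was 1.71-fold and 2.69-fold higher. The empty windows of the interval itself were kept in that comparison. Peaks covered 1.27% and 1.05% of the interval, against 0.225% and 0.114% of the rest. Among 52 consecutive windows of the same 2.2 Mb length on chromosome 13, 1 window held more replicate 1 peaks and none held more replicate 2 peaks. The median window there held 11 peaks in replicate 1 and 7.5 in replicate 2. Over the genome the interval was not extreme: of 1145 such windows, 64 had more peaks in replicate 1 and 14 in replicate 2.

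**Figure D1:**
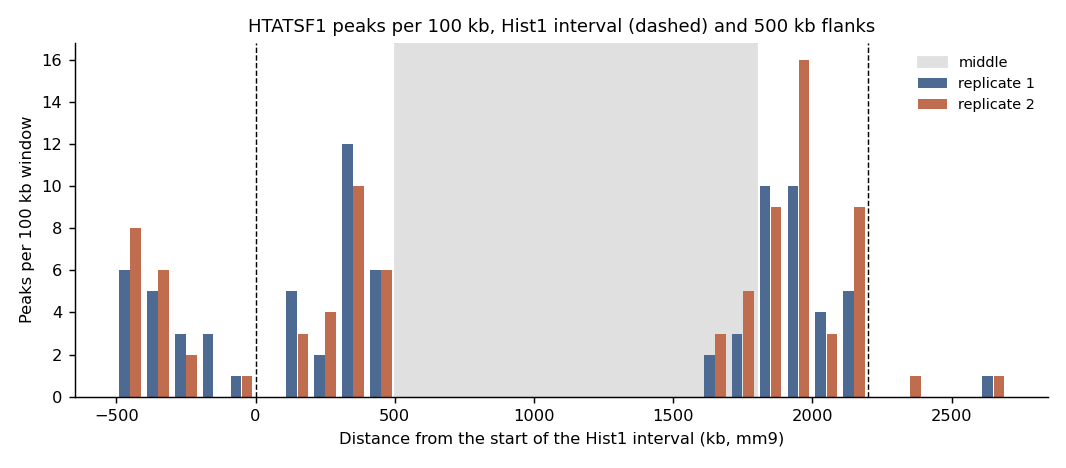
Number of HTATSF1 peaks (y axis) in each 100 kb window of the Hist1 interval (between the dashed lines) and 500 kb on either side, by distance from the start of the interval in kb (x axis), with 1 bar per replicate. Grey marks the middle, where 11 of 13 windows held no peak in either list.

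The peaks lay in 10 of the 22 windows of 100 kb in the interval, the same 10 in both lists, and 12 windows were empty in both. That is 45.5% of the windows, whereas on the rest of chromosome 13 a peak was present in 29.2% of windows for replicate 1 and 24% for replicate 2. Windows with 5 or more peaks numbered 6 in each list (27.3%), against 1.13% and 0.523% of windows on the rest of the chromosome. Going along the interval, the first window was empty. The next 4 windows held 5, 2, 12 and 6 peaks in replicate 1 and 3, 4, 10 and 6 in replicate 2. The window with 12 peaks, chr13:22000001-22100000, was not exceeded by any window of the chromosome in that list. The 11 windows after these held no peak in either list. The last 6 windows held 2, 3, 10, 10, 4 and 5 peaks in replicate 1 and 3, 5, 9, 16, 3 and 9 in replicate 2. The window with 16 peaks, chr13:23600001-23700000, was not exceeded in replicate 2. The 2 flanks were not alike. In the 500 kb before the interval there were 18 and 17 peaks (3.6 and 3.4 per 100 kb), and in the 500 kb after it 1 and 2. The peaks before it did not adjoin its start, where the nearest 100 kb window outside held 1 peak in each list. The 2 flank windows farthest from the start held 6 and 5 peaks in replicate 1, and 8 and 6 in replicate 2.

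The 3 densest windows over both lists differed in make-up. In chr13:22000001-22100000, 6 of the 12 replicate 1 peaks and 7 of the 10 of replicate 2 were also found in the other list, that is, overlapped one of its peaks. Ranks are given here as percentiles of the deposited score within the whole list, so that 50 is the list's middle and 100 its highest peak. What the score measures is not stated, and it is not compared between lists in any other form. The median rank in this window was 41.45 in replicate 1 and 67.9 in replicate 2, where 9 of 10 peaks were above 50. In chr13:23500001-23600000, 3 of 10 and 4 of 9 peaks were shared. The shared peaks had replicate 1 ranks of 90.1, 93.3 and 76.3 and replicate 2 ranks of 98.8, 97.2, 98.6 and 78.6. The other 7 replicate 1 peaks of that window ranked from 6.1 to 64.1, and the other 5 of replicate 2 from 7.8 to 84.4. In chr13:23600001-23700000, 8 of 10 replicate 1 peaks were shared, and the median rank of the window was 40. In replicate 2 it held 8 shared peaks and 8 others, and the median rank of all 16 was 39.05. Of the 8 others, 6 lay after chr13:23663127, beyond the last replicate 1 peak of the window.

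The ends and the middle of the Hist1 interval differed sharply in both lists. The proximal end (21.7 to 22.2 Mb) held 25 peaks in replicate 1 and 23 in replicate 2, a density of 5 and 4.6 per 100 kb. The distal end (23.5 to 23.9 Mb) held 29 and 37, a density of 7.25 and 9.25. The middle (22.2 to 23.5 Mb), where the receptor genes are thought to lie, held 5 and 8, a density of 0.385 and 0.615. The ends together were 15.6-fold denser than the middle in replicate 1 and 10.8-fold denser in replicate 2. The middle itself was 0.728 times as dense as the rest of chromosome 13 in replicate 1 and 1.59 times as dense in replicate 2. The boundaries are round positions set from general knowledge of the locus, with earlier results of these data known. They decide the size of the contrast. With the middle 100 kb shorter at each side the ends were 28.5-fold and 21.7-fold denser, and with it 100 kb longer at each side 3.88-fold and 4.19-fold.

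**Figure D2:**
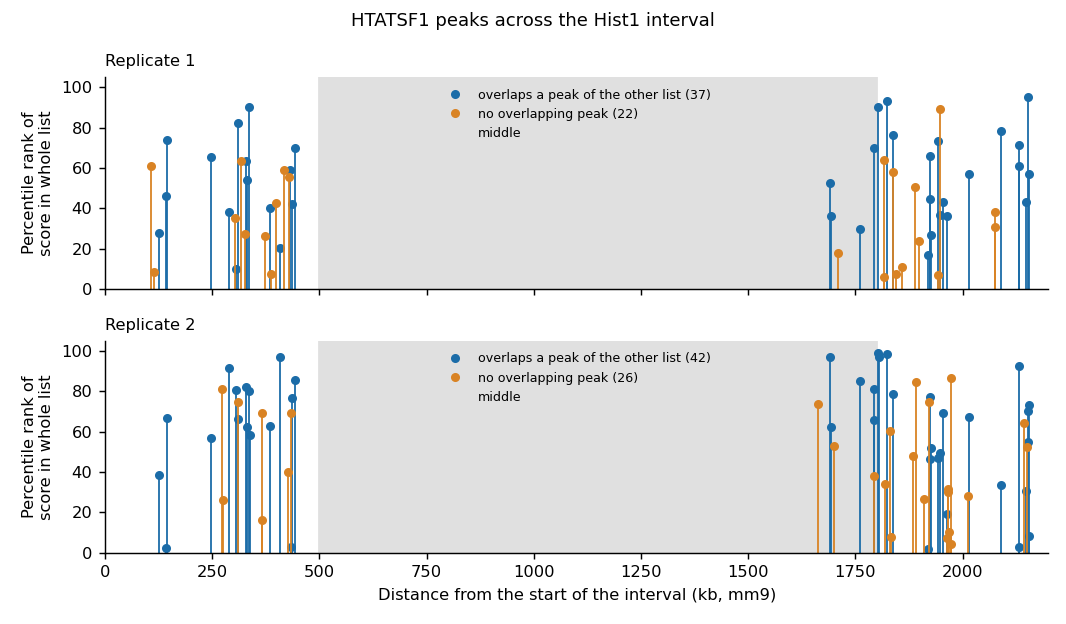
Each HTATSF1 peak of the Hist1 interval by its distance from the start of the interval (x axis, kb) and the percentile rank of its score in the whole list (y axis), with 1 panel per replicate. Blue peaks overlap a peak of the other list (37 in replicate 1, 42 in replicate 2), orange peaks do not (22 and 26), and grey marks the middle, whose peaks all lie in its last part.

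All peaks of the middle lay near its distal boundary. No peak of either list was found between chr13:22143138 and chr13:23362224, a stretch of 1219 kb or 55.4% of the interval. It was 1248 kb long in replicate 1 alone. With the lists pooled, 12 of the 1176 gaps of the chromosome were longer, and the median gap was 11.4 kb. In single lists, 15 of 664 gaps in replicate 1 and 21 of 511 in replicate 2 were longer than the longest of that list in the interval. The stretch began right after a peak found in both lists, at chr13:22142514-22143024 in replicate 1 (rank 69.7) and chr13:22142711-22143137 in replicate 2 (rank 85.4).

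In the middle, replicate 1 had peaks at chr13:23390612-23391233 (rank 52.6), 23391908-23392157 (36.3), 23409195-23409454 (17.8), 23460752-23461306 (29.7) and 23492533-23493987 (69.7). All but the one at 23409195 overlapped a replicate 2 peak, and all 4 of these partners ranked higher in replicate 2. The first had a partner at chr13:23390546-23391293 of rank 96.9 whose midpoint was 3 bp away. The others ranked 62.5, 85.1 and 81.3. The remaining replicate 2 peaks of the middle were a further partner of the last peak (rank 66) and 3 unshared peaks with ranks of 73.7, 52.8 and 37.9. The unshared peak at chr13:23362225-23362602 was 28.0 kb from any replicate 1 peak, the largest such distance in the interval.

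Spacing within the occupied parts was short. The median gap from the end of a peak to the start of the next was 8207 bp in the Hist1 interval in replicate 1 and 4958 bp in replicate 2. On the rest of chromosome 13 it was 55046 and 73612.5 bp. Gaps under 1 kb made up 9 of 58 gaps (15.5%) in replicate 1 and 18 of 67 (26.9%) in replicate 2, against 12.4% on the rest of the chromosome in both lists. The distal end was the closest spaced, with median gaps of 7020.5 and 3597.5 bp and 7 and 11 gaps under 1 kb. The proximal end had medians of 8129.5 and 6267 bp, with 1 and 4 gaps under 1 kb.

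Peaks of the Hist1 interval had about the width of others in their list. The median width was 402 bp (quartiles 312 and 543) in replicate 1 and 285.5 bp (238.75 and 417.75) in replicate 2. The rest of chromosome 13 had medians of 380.5 and 268.5 bp, so the ratio was 1.06 in both lists. The widest was the same region in both: chr13:23503373-23505062 with 1690 bp in replicate 1, and chr13:23503265-23504103 with 839 bp in replicate 2.

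The shares of Hist1 peaks found again in the other list were alike, at 62.7% in replicate 1 (37 of 59, exact 95% binomial interval 49.1 to 75.0%) and 61.8% in replicate 2 (42 of 68, 49.2 to 73.3%). Sharing means an overlap of at least 1 bp, and the intervals cover counting error only. On the rest of chromosome 13 the shares were 41.7% (37.8 to 45.8%) and 59.9% (55.2 to 64.5%), and over the whole lists 45.6% and 65.2%. Sharing in the interval thus lay above the background in replicate 1 and near it in replicate 2. Replicate 2 peaks, the possible partners of those of replicate 1, were 7.99-fold denser here than elsewhere on the chromosome. They covered 2.16% of the ends. The part of this density in the higher share was not tested.

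The 2 lists together marked 85 separate regions in the interval: 37 in both, 22 in replicate 1 alone and 26 in replicate 2 alone. Shared peaks had midpoints a median of 48 bp apart, seen from replicate 1. Replicate 1 peaks had a single partner in 33 cases and several in 4, while every shared replicate 2 peak had 1. The replicate 1 peak with most partners, chr13:23852913-23853893, spanned 3 replicate 2 peaks. Of the unshared peaks, 5 of 22 in replicate 1 and 7 of 26 in replicate 2 lay within 1 kb of a peak of the other list. Neither these counts nor those of separate regions were made for the rest of the chromosome. Within the interval, shared peaks ranked higher and were wider than unshared ones. Their median ranks were 56.8 against 32.95 in replicate 1 and 66.55 against 44.05 in replicate 2, with median widths of 449 against 354.5 bp and 330.5 against 265 bp. A wider peak meets the rule of 1 bp of overlap more easily, and the part of this in the width difference was not tested. On the rest of chromosome 13, shared replicate 1 peaks had a higher median rank, 67.9. By block, 15 of 25, 4 of 5 and 18 of 29 replicate 1 peaks were shared in the proximal end, the middle and the distal end. In replicate 2 the counts were 16 of 23, 5 of 8 and 21 of 37. The binomial intervals of the proximal and distal end overlapped, at 38.7 to 78.9% and 42.3 to 79.3% in replicate 1, and 47.1 to 86.8% and 39.5 to 72.9% in replicate 2.

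Replicate 2 had more peaks in the Hist1 interval than replicate 1, although its list was shorter. It had 68 against 59, a ratio of 1.15, where the whole lists gave 0.724 and the rest of chromosome 13 gave 0.733. Of the replicate 1 list 0.303% lay in the interval (exact 95% interval 0.231 to 0.390%), and of the replicate 2 list 0.482% (0.374 to 0.610%); these intervals overlap slightly. With the replicate 1 list reduced to its highest-scored peaks so that both lists were equally long, 45 remained in the interval against 68. Among the 318 windows of 2.2 Mb in the genome with at least 20 replicate 1 peaks, 1 had a higher ratio of replicate 2 to replicate 1 peaks. The median ratio over them was 0.7, and 4 had more replicate 2 than replicate 1 peaks. The excess in number came from the distal end (29 and 37 peaks) and the middle (5 and 8), while the proximal end had 25 and 23. The ratio in the proximal end, 0.92, was still above that of the whole lists. Replicate 2 also had more peaks close to each other, with 18 gaps under 1 kb against 9. With peaks under 1 kb apart merged, a count added after the data were seen, both lists had 50 regions in the interval. The excess was thus gone in the total but not in every block. Merged regions numbered 24 in replicate 1 and 19 in replicate 2 in the proximal end, 4 and 5 in the middle, and 22 and 26 in the distal end. The ratio after merging was 0.733 on the rest of chromosome 13 and 0.751 over the whole lists. With 2 libraries these differences cannot be set against a spread between replicates.

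**Figure D3:**
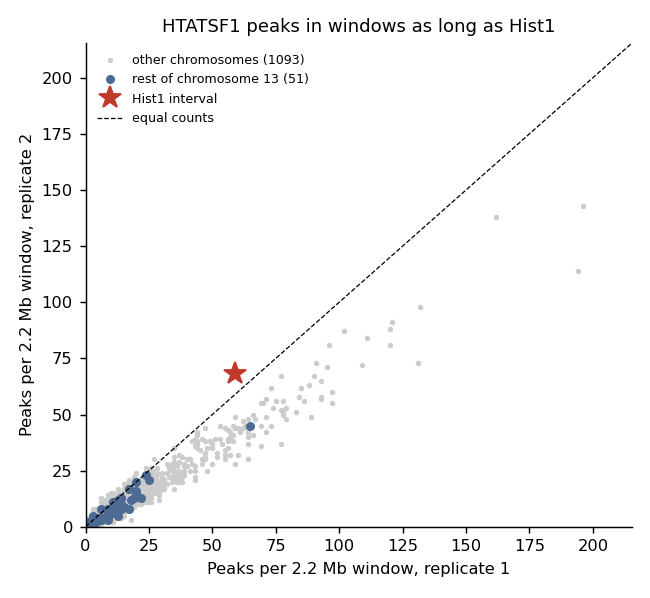
Number of HTATSF1 peaks in consecutive 2.2 Mb windows, replicate 1 on the x axis and replicate 2 on the y axis, with the Hist1 interval as a red star, the other 51 windows of chromosome 13 in blue and the other chromosomes in grey. The star (59 and 68 peaks) lies above the dashed line of equal counts, where most windows lie below it.

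The ranks of the Hist1 peaks, set against the rest of the chromosome, differed between the lists. In replicate 1 the median rank was 46.2 (quartiles 28.9 and 64.7), against 48.6 on the rest of chromosome 13, and 29 of 59 peaks were above rank 50. In replicate 2 it was 62.4 (33.2 and 77.7), against 44.3, and 42 of 68 peaks were above rank 50. The interval thus lay 18.1 points above the rest by median rank in replicate 2, and the difference was -2.42 points in replicate 1; whether the lists differ was not tested. In replicate 2 the proximal end (66.8) and the middle (69.8) had the higher median ranks, while the distal end had 49.2. In replicate 1 the medians were 46.2, 36.3 and 50.8. The top 10% of the list held 3 of the 59 peaks in replicate 1 and 7 of the 68 in replicate 2. On the rest of chromosome 13 it held 52 of 606 and 35 of 444. Of the 7 in replicate 2, 2 lay in the proximal end, 1 in the middle and 4 in the distal end. The highest ranks in the interval were 95.1 and 98.8. At the ends, 27 of 54 and 35 of 60 peaks were above rank 50.

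Within the 37 shared replicate 1 peaks, 24 (64.9%) ranked lower than their highest-scored partner, compared with 43.1% of the 253 shared peaks on the rest of chromosome 13. The median of replicate 2 minus replicate 1 was 9.9 percentile points. Regardless of sign the median difference was 17 points, with 9 pairs within 10 points and 9 over 40 points apart. The Spearman correlation of the paired ranks was 0.25 and the Pearson correlation 0.26, across 37 peaks that come from the same 2 libraries; on the rest of the chromosome the Spearman value was 0.29 across 253 peaks. Both partners were above rank 50 in 17 pairs and below it in 7. The pairs that differed most were chosen after their values were seen. At chr13:22107411-22107859 replicate 1 had rank 20.3 and replicate 2 had 97.2. At chr13:22006478-22006829 the ranks were 9.7 and 80.6. In the other direction, chr13:23830547-23830861 had 60.9 in replicate 1 and 2.7 in replicate 2, and chr13:22132498-22132955 had 59.2 and 3. A position found in both libraries could thus rank low in one list and much higher in the other.

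**Figure D4:**
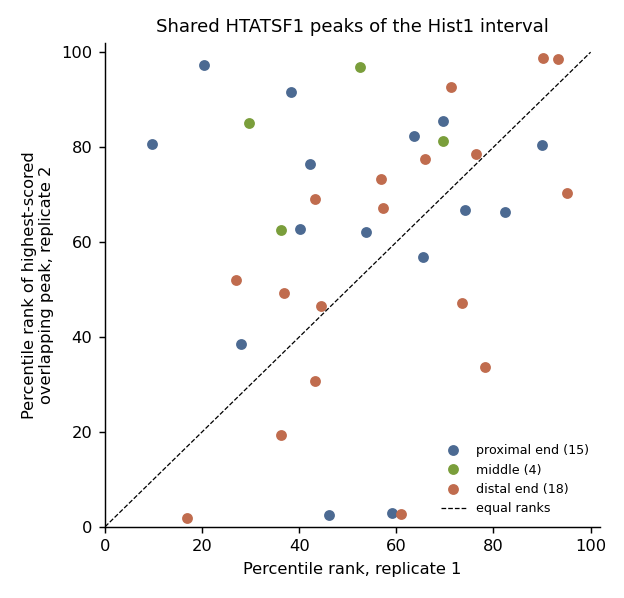
Percentile rank of each of the 37 shared peaks of the Hist1 interval in replicate 1 (x axis) and of its highest-scored overlapping peak in replicate 2 (y axis), coloured by block, with the dashed line of equal ranks. Of these peaks 24 lie above the line, among them all 4 of the middle.

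The 10 shared regions with the highest mean rank over both lists lay in the distal end (5), the proximal end (3) and the last part of the middle (2). The first was at chr13:23524346-23525131 in replicate 1, with rank 93.3 and a score of 237.02, and at chr13:23524482-23525139 in replicate 2, with rank 98.6 and a score of 255.4. The second was the widest region named above, with ranks of 90.1 and 98.8. These 2 and the third, chr13:22036545-22037292 in the proximal end (ranks 90 and 80.4), were the 3 shared peaks above rank 80 in both lists. The fourth, chr13:23852913-23853893, had the highest rank of the interval in replicate 1, 95.1, but 70.4 in replicate 2, where it was broken into 3 peaks. The fifth, chr13:23831221-23831785, ranked 71.2 and 92.6. The others were the peak at 22142514 at the edge of the empty stretch, chr13:23537428-23538209 (76.3 and 78.6), the middle peaks at 23492533 and 23390612, and chr13:22010713-22011396 (82.4 and 66.3). Of the 10 regions, 4 lay between chr13:23492533 and chr13:23538209, across the boundary of the middle and the distal end, with unshared peaks of both lists among them. The highest-ranked unshared peak of replicate 1 was chr13:23646748-23647107 (rank 89.1), 170 bp from a replicate 2 peak. In replicate 2 it was chr13:23673220-23673571 (rank 86.8), 10092 bp from the nearest replicate 1 peak.

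At the edges of the Hist1 interval, the first peaks inside lay 108 kb (replicate 1, rank 60.9) and 127 kb (replicate 2, rank 38.5) after its start, and the last peaks outside 76.8 and 76.9 kb before it (ranks 58.8 and 2.7). The last peaks inside lay 44.0 and 44.2 kb before its end (ranks 56.8 and 73.2), and the first outside 473 and 127 kb after it (78.8 and 20.7). No peak crossed an edge.

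The Hist2 interval was dense in peaks in both lists. Its 100 kb held 8 peaks in each list, against 0.502 and 0.365 per 100 kb on the rest of chromosome 3, a density 15.9-fold and 21.9-fold higher. Against only the 100 kb windows with a peak of either list, it was 4.42-fold and 6.03-fold higher. Windows with at least 5 peaks made up 1.97% and 1.04% of those on the rest of the chromosome, and 6 and 2 windows of the chromosome had more than 8. The neighbourhood was dense too. The 500 kb after the interval held 34 and 25 peaks (6.8 and 5 per 100 kb), and the 500 kb before it 14 and 11 (2.8 and 2.2). The density was therefore not confined to the Hist2 interval.

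**Figure D5:**
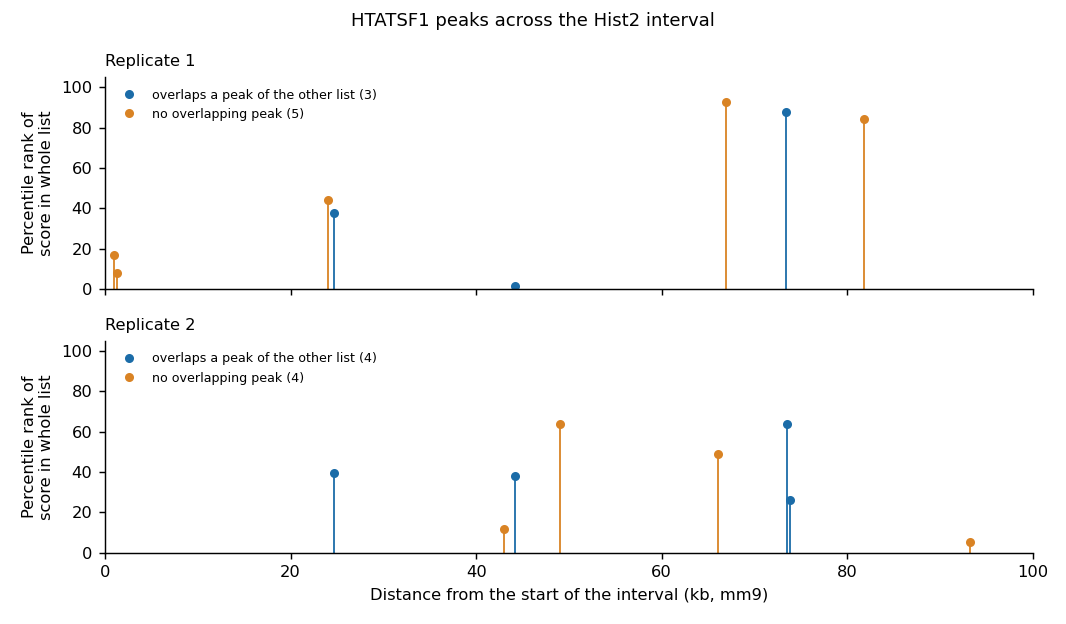
Each HTATSF1 peak of the Hist2 interval by its distance from the start of the interval (x axis, kb) and the percentile rank of its score in the whole list (y axis), with 1 panel per replicate. Of 8 peaks in each list, 3 in replicate 1 and 4 in replicate 2 (blue) overlap a peak of the other list.

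Of the Hist2 peaks, 3 of 8 in replicate 1 (37.5%, interval 8.5 to 75.5%) and 4 of 8 in replicate 2 (50%, 15.7 to 84.3%) were shared. The rest of chromosome 3 had 45.1% and 63.9%, and both values lie inside these wide intervals. The peaks fell into 12 separate regions, 3 of them in both lists. The same count was not made for the rest of chromosome 3. The first shared region was at chr3:96024705-96024914 (rank 37.7) in replicate 1 and chr3:96024713-96024929 (39.3) in replicate 2, with midpoints 11.5 bp apart. The second was very narrow, 98 bp at chr3:96044188-96044285 (rank 1.4) and 85 bp at chr3:96044200-96044284 (37.8), with midpoints 5.5 bp apart. The third, chr3:96073364-96074108, had rank 87.9 and spanned a pair of replicate 2 peaks, at 96073517-96073821 (63.6) and 96073841-96074081 (26.3).

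Of the 3 highest-ranked replicate 1 peaks of the Hist2 interval, 2 were not found again. The highest, chr3:96066893-96067502 (rank 92.8), lay 482 bp from a replicate 2 peak at 96066083-96066410 (48.7) without overlapping it. The peak at chr3:96081752-96082526 (84.1) lay 7670 bp from the nearest. The other unshared replicate 1 peaks were at 96000966-96001235 (16.9), 96001280-96001633 (8.2) and 96024063-96024502 (44). Those of replicate 2 were at 96043044-96043117 (11.7), 96049034-96049257 (63.7) and 96093236-96093386 (5.1). The median rank was 40.9 in replicate 1 and 38.6 in replicate 2, a difference of -11.1 and -10.5 points from the rest of chromosome 3. With 8 peaks a list this rests on few values: with lists of equal length the difference was 27.9 points in replicate 1, where 5 peaks remained. At the edges, the nearest peaks inside lay 0.965 and 24.7 kb after the start and 17.5 and 6.61 kb before the end, and those outside 23.1 and 23.5 kb before and 32.2 and 32.0 kb after.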

How the data were processed

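Samples were grouped by their titles, from which the replicate numbers also come. Each immunoprecipitated library had 1 peak list, deposited by the authors with a start, an end, a name beginning with MACS and a score per peak. The submitters' processing notes name Bowtie, Picard 1.82 and bedtools and the build mm9; no version, threshold or control of the caller is given there. The deposited score has no stated meaning and was turned into a percentile rank within each list. Deposited positions were not changed, apart from counting from 1.

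A peak was a member when it lay wholly inside an interval, and shared when at least 1 bp of it was covered in the other list. Windows of 100 kb were assigned by peak midpoint. Shares carry exact (Clopper-Pearson) 95% intervals. The intervals, the boundaries of the middle and the rules for named peaks (all Hist2 peaks, all middle peaks, the 10 shared Hist1 peaks of highest mean rank, the highest unshared and widest of each list, and those at the edges) were chosen with earlier results of these data known. Promoters were matched by gene identifier, 1 per gene. The overlap code was tested on simulated lists. Python 3.11.15 with numpy 2.4.6, pandas 2.3.3, scipy 1.17.1 and matplotlib 3.10.9 was used.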

Additional observations from a re-analysis of the deposited data

How the results depend on the processing

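Each result was recomputed as the mean of both lists. Of 40 alternative values that used both lists, 28 stayed within the 95% interval (shares) or 1 SD of the lists (densities, ranks, widths, spacing). Those 28 include the alternatives that counted any overlap with an interval, which left every value unchanged and so tested nothing. The SD comes from only 2 values, so staying within it says little. Counting the rest of a chromosome only over 100 kb windows with a peak lowered the density ratio from 6.53 to 2.20 in Hist1 and from 18.9 to 5.23 in Hist2. The empty windows inside the Hist1 interval were kept there. With the higher-scored 50% of each list the Hist2 ratio was 11.2 and the Hist1 width ratio 1.03. The ratio of ends to middle, 13.2, became 25.1 with a middle 100 kb shorter at each side and 4.04 with 1 that was 100 kb longer. Shared Hist1 peaks, 62.2%, became 41.2% when the overlap had to cover 50% of each peak and 71.6% for a peak within 1 kb. Merging peaks under 1 kb apart gave a Hist1 width ratio of 1.25 and a Hist2 rank difference of -2.74. Lists of equal length, added after the data were seen, gave a width ratio of 1.03 and a Hist2 rank difference of 8.68, which reversed its sign from -10.8. For the other changes the cause was not tested. Each list alone, also added later, gave a Hist1 rank difference from -2.42 to 18.1, a change of sign. The density ratio ranged from 5.08 to 7.99 in Hist1, 15.9 to 21.9 in Hist2 and 10.8 to 15.6 for ends against middle. The Hist2 rank difference ranged from -11.1 to -10.5, and the spacing ratio, 0.108 in the mean, from 0.0674 to 0.149; a single list gives no sharing. No paired analysis was possible because inputs with matching replicate numbers were not analysed here. With unknown depth, a peak missing from a list does not show that its region was unbound.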
